A study of Mus musculus with 9 samples.

Results

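The centromere-proximal ends described here are the first 5 Mb of probes on each mouse autosome other than chromosome 7. An end was taken as every probe whose start lay within 5 Mb of the smallest probe start of its chromosome, and the contacts read there are those of the Dbp gene on chromosome 7. This gave 18 ends with 12932 of the 345075 probes on these 18 autosomes (3.75%), out of 384942 probes per array. A 5 Mb end held between 374 probes (chromosome 14) and 835 probes (chromosome 2). The first probe started between position 3002404 (chromosome 1) and position 3736456 (chromosome 14). Cut into consecutive 5 Mb segments, the same autosomes gave 459 segments, against which the ends were read. Coordinates are those of the deposited files, for which the sources used here give no genome build.

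Mouse autosomes carry the centromere near the end with the low coordinates, so the probes nearest to position 1 are the ones nearest to the centromere. The centromere and its flank consist of satellite repeats that cluster with those of other chromosomes into heterochromatic foci called chromocentres. Contacts between chromosomes are known to favour active, gene-rich chromatin, and chromosomes 11 and 19 are among the gene-rich mouse chromosomes. Dbp is a clock-controlled gene for a transcription factor. Bmal1 encodes a partner of Clock in the complex that switches such genes on.

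The assay was 4C-on-chip, a form of chromosome conformation capture in which crosslinked chromatin is cut with HindIII, ligated, cut again with Csp6I, circularized and amplified from the Dbp viewpoint. Cy5-labelled 4C DNA was hybridized with Cy3-labelled genomic DNA of the corresponding cells to 1 two-colour NimbleGen array per sample, with no dye swap. All cells were mouse embryonic fibroblasts from embryos at embryonic day 13 on a C57BL/6 background, and all were treated with dexamethasone for 2 h, which synchronizes their clocks. The question of the design was how contacts differ with circadian time (CT, in hours) and without Bmal1. WT line 1 gave 5 arrays (CT22, CT26, CT30, CT34 and CT46), a single Bmal1-/- line gave 2 (CT22 and CT34) and the independent line WT2, called line 2 here, gave 2 (CT22 and CT34). Sibling mice gave line 1 and the Bmal1-/- line, both of which grew with NCS, heat-inactivated FBS and amino acids, whereas line 2, from a separate cross, grew with FBS. In the file headers, 24 and 36 stand in the names of the line 2 arrays, where the labels give 22 and 34. Since every time point of a line was 1 array, the SD given for line 1 runs over 5 different times, and genotype cannot be told apart from the single Bmal1-/- line.

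The value of a probe is its log2 ratio of 4C DNA over genomic DNA. A probe was called high when it lay above the 95th percentile of its own array, taken over the probes off chromosome 7. The SD of the log2 ratios was 0.82 to 0.93 on the line 1 arrays, 0.92 and 1.10 on the Bmal1-/- arrays, and 0.39 and 0.41 on the line 2 arrays. The 95th percentile was 1.67 to 2.11 for line 1, 2.21 and 2.80 for the Bmal1-/- arrays, and 0.51 and 0.53 for line 2. Over the 18 autosomes 5.08% to 5.14% of probes were high on the line 1 and Bmal1-/- arrays and 4.84% to 4.86% on the line 2 arrays. The narrower range of line 2 moves with every difference between line 2 and the other lines below, and its part in them was not tested.

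The ends of the autosomes did not share one level of contact with Dbp. The end of chromosome 19 stood far above the rest of its own chromosome in every array, the ends of chromosomes 11 and 18 stood above theirs by less, and the other 15 lay on both sides of 0. The difference in the share of high probes between an end and the rest of its chromosome, in percentage points, is called the excess below. Averaged over the 18 ends, the excess was 1.52 ± 0.221 points in line 1 (SD, n = 5), 1.33 ± 0.0763 in Bmal1-/- (SD, n = 2) and 0.190 ± 0.0887 in line 2 (SD, n = 2). Without chromosomes 19, 11 and 18, a choice made after their values were seen, the mean over 15 ends was -0.169 ± 0.215, 0.0492 ± 0.244 and -0.339 ± 0.0240 points in the same order. Leaving out the highest ends lowers such a mean by construction. The mean of the other 15 was within its SD of 0 in line 1 and Bmal1-/-, and below 0 in line 2. In line 2 chromosome 18, at 0.155 points, was itself below the mean over the 18 ends.

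**Figure D1:**
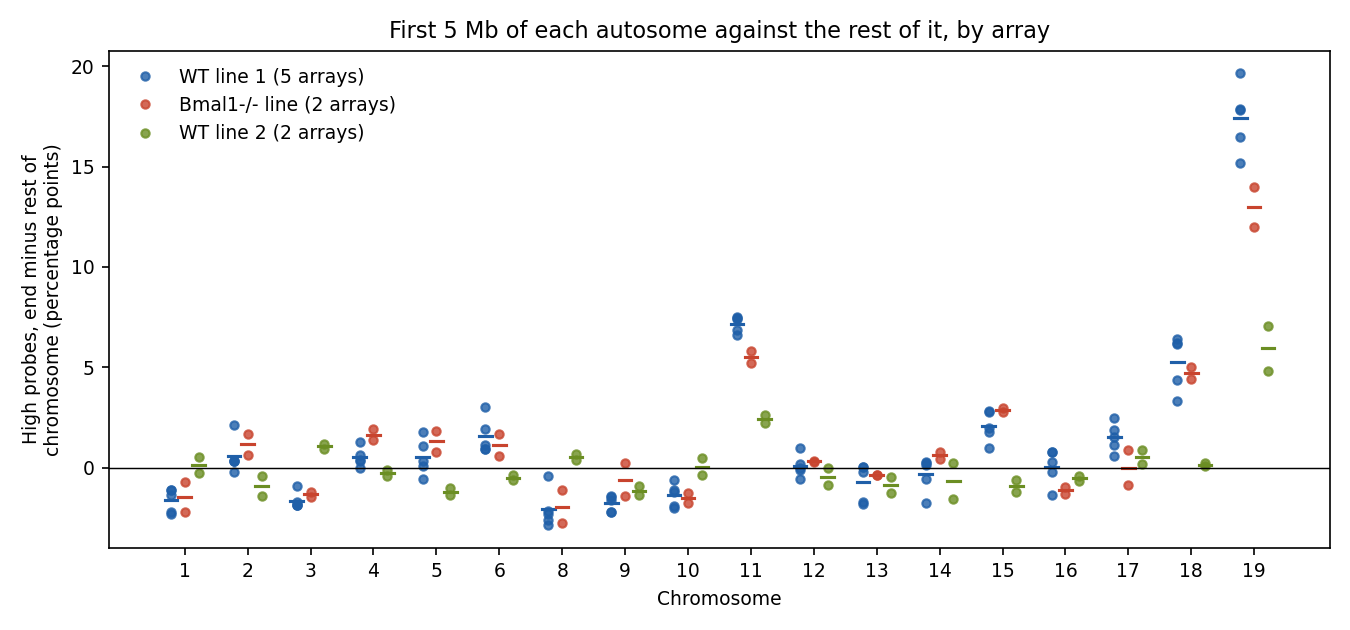
Excess of high probes in each of the 18 centromere-proximal ends over the rest of its chromosome (percentage points, vertical axis) by chromosome, with 1 point per array and a horizontal tick at the mean of each line. Chromosome 19 reaches 19.6 points in line 1, chromosomes 11 and 18 lie above 0 on all 9 arrays, and most other ends scatter around 0.

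The excess of every segment was tested against 0 over the 9 arrays with limma, as the mean of the 3 line means. All arrays carry the same probes, and no sample was hybridized more than once. The fit takes its error from the spread between arrays within a line, so a call concerns the mean of these 3 lines and does not cover the spread between lines. Of the 18 ends, 7 were higher than the rest of their chromosome (4, 6, 11, 15, 17, 18 and 19), 6 were lower (1, 3, 8, 9, 10 and 13) and 5 did not pass (limma adjusted p under 0.05). Among all 459 segments 32% were called higher, 46.6% lower and 78.6% in either direction. The 13 called ends of 18 (72.2%) are thus a share near the background of all segments. The median excess was 0.103 points over the 18 ends and -0.383 over all segments. It was above 0 at 9 ends (50.0%) and at 199 segments (43.4%), and 3 ends were among the 45 segments with the highest excess. The calls at 8 ends (1, 8, 9, 10, 11, 15, 18 and 19) held when any 1 array was left out. The other 5 were each lost without at least 1 array: chromosome 17 without the CT22 array of any of the 3 lines (excess down to 0.402), and chromosome 6 without Bmal1-/- CT22 or either line 2 array (0.558 at the lowest). Chromosomes 3 and 4 lost theirs without Bmal1-/- CT34 or line 2 CT34, and chromosome 13 without any of 6 arrays, the exceptions being line 1 CT22, CT26 and CT46.

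**Figure D2:**
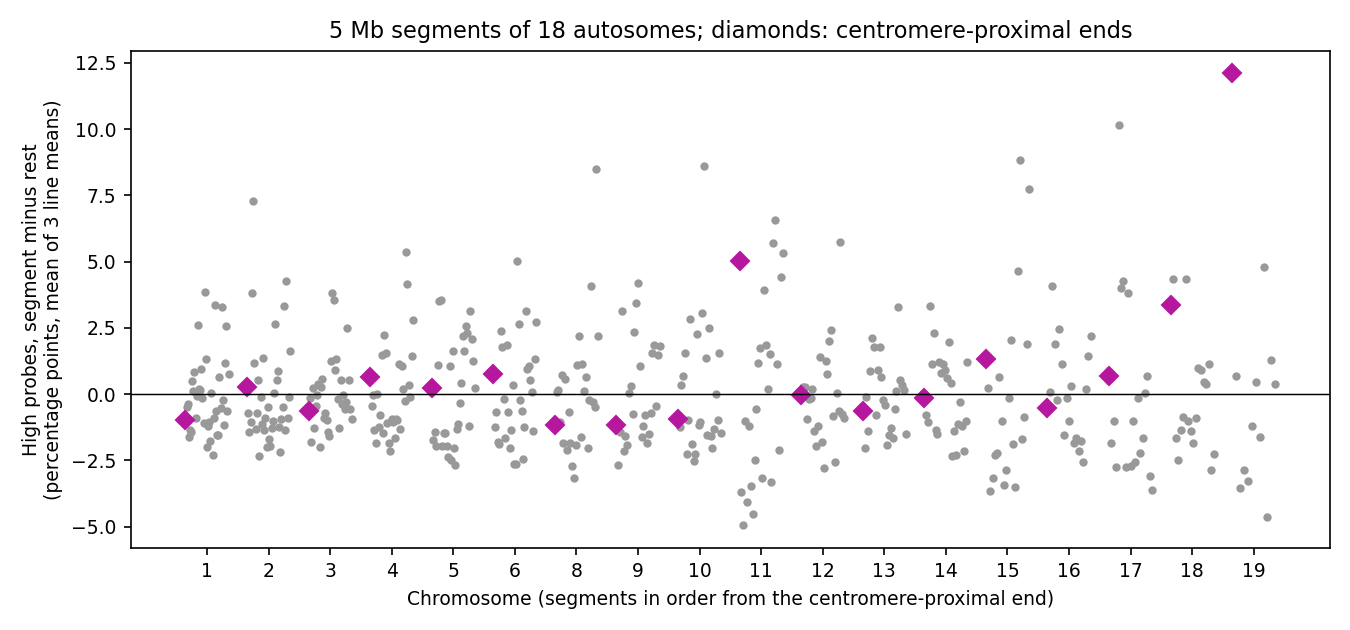
Excess of high probes (percentage points, mean of the 3 line means, vertical axis) in each of the 459 segments of 5 Mb, placed by chromosome in order from the centromere-proximal end, with the 18 ends as diamonds and the other segments as grey points. The end of chromosome 19 has the highest value of all segments at 12.1 points, and the median of the ends is 0.103 points.

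Chromosome 19 had the highest excess of all 459 segments. Its end comprises 670 probes that start between 3103127 and 8099570. In line 1 the share of high probes there was 25.5% at CT22, 27.5% at CT26, 25.5% at CT30, 22.2% at CT34 and 23.4% at CT46. It was 19.1% and 21.2% in Bmal1-/- at CT22 and CT34, and 10.0% and 12.5% in line 2. All 5 line 1 arrays were above both Bmal1-/- arrays, which were above both line 2 arrays. The exact Clopper-Pearson 95% interval of the line 1 CT22 share was 22.3% to 29.0%, and that of line 2 CT22 was 7.83% to 12.5%; such intervals cover counting error only. The remainder of chromosome 19 had 7.44% high probes in line 1, 7.15% in Bmal1-/- and 5.33% in line 2. The excess was 17.4 ± 1.67 points in line 1 (SD, n = 5), 13.0 ± 1.42 in Bmal1-/- (SD, n = 2) and 5.94 ± 1.61 in line 2 (SD, n = 2). The fitted mean of the lines was 12.1 points (SE 0.440, limma adjusted p = 1.73e-10). On the log2 scale the mean ratio of the end exceeded the remainder by 0.75 in line 1, 0.74 in Bmal1-/- and 0.10 in line 2. On that scale the means of line 1 and Bmal1-/- were thus closer to each other than on the share scale. Log2 values were not scaled to the range of each array. The 95th percentile was 2.21 and 2.80 on the Bmal1-/- arrays against 1.67 to 2.11 in line 1, and its part here was not tested. The 2 Bmal1-/- arrays lay on either side of all line 1 arrays (0.723 to 0.824), at 0.589 (CT22) and 0.893 (CT34).

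The high probes of chromosome 19 were spread over most of its end, with a dip across the 5 Mb limit and a second, lower rise beyond it. Bins of 500 kb with at least 20 probes were used, at distances counted from the first probe. The highest bin was 2.5 to 3 Mb from the first probe, with 72 probes starting from 5609525 and ending at 6099592. There 35.8% ± 4.33 of probes were high in line 1 (SD, n = 5), 33.3% in Bmal1-/- and 22.2% in line 2. The last bin, from 4.5 to 5 Mb, was the lowest in line 1 (6.67%) and in Bmal1-/- (4.17%), and in line 2 it had 5.00% beside 4.69% in the first bin. In line 1 the bin just outside, from 5 to 5.5 Mb, had 4.23%, and the next one, from 5.5 to 6 Mb, had 22.7%. In the next 5 Mb segment, with probe starts from 8104961 to 13086314, the line 1 share was 9.96% ± 0.716 (SD, n = 5). The segment after that had 4.15%. Of the probes of chromosome 19 the end held 7.25%, and of its high probes 20.7% ± 0.644 on the line 1 arrays (SD, n = 5), 18.0% in Bmal1-/- and 14.1% in line 2. With the end left out, the share of high probes on chromosome 19 in line 1 went from 8.70% to 7.44%, and its rank among the 18 autosomes from 1 to 2, behind chromosome 11.

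Chromosome 11 had the next highest excess among the ends, from 747 probes that start between 3005075 and 8002730. The share of high probes was 14.6%, 15.5%, 15.1%, 14.2% and 15.1% in line 1 at CT22, CT26, CT30, CT34 and CT46. It was 12.2% and 13.3% in Bmal1-/-, and 8.57% and 8.03% in line 2, so the 3 lines did not overlap. The rest of the chromosome was at 7.75% in line 1, 7.22% in Bmal1-/- and 5.88% in line 2. The excess was 7.17 ± 0.404 points in line 1 (SD, n = 5), 5.50 in Bmal1-/- and 2.42 in line 2, with a fitted mean of 5.03 points (SE 0.211, limma adjusted p = 5.92e-10). Unlike on chromosome 19, other segments of chromosome 11 were higher: the end ranked 4 of 24 on its own chromosome and 14 of all 459, and the segment with probe starts from 98005328 to 103002411 led with 6.57 points. The highest 500 kb bin of the end lay 2 to 2.5 Mb from the first probe (68 probes, 5009494 to 5499611), with 24.4% ± 2.67 in line 1 (SD, n = 5) and 24.3% in Bmal1-/-. It was highest in these lines and in the mean of the lines, but in line 2 it had 7.35% and the bin from 2.5 to 3 Mb led with 16.4%. The last bin was at 1.39% in line 1, and the next 5 Mb segment was at 3.33% ± 0.541 (SD, n = 5). The high share of this end was thus bounded within the first 5 Mb in line 1.

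Chromosome 18 followed, from 736 probes that start between 3021477 and 8003853. The share of high probes in line 1 was 8.29%, 11.4%, 11.01%, 9.38% and 11.01% in order of time, against 4.93% in the rest of the chromosome. It was 9.51% and 9.92% in Bmal1-/-, within the range of line 1, and 4.89% and 4.62% in line 2, below it. The excess was 5.29 ± 1.38 points in line 1 (SD, n = 5), 4.70 in Bmal1-/- and 0.155 in line 2, with a fitted mean of 3.38 points (SE 0.337, limma adjusted p = 7.84e-07). On the log2 scale line 2 gave -0.01 against 0.26 in line 1 and 0.33 in Bmal1-/-. The high share did not end at 5 Mb: the next segment (probe starts 8031007 to 13013870) was higher still, at 11.7% ± 1.19 in line 1 (SD, n = 5) and 11.4% in Bmal1-/-. In line 1 the lowest bin of the end was the first 500 kb, with 4.31% ± 3.15 (SD, n = 5). In Bmal1-/- it was the bin from 1.5 to 2 Mb (4.82%) and in line 2 the bin from 4 to 4.5 Mb (2.11%).

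**Figure D3:**
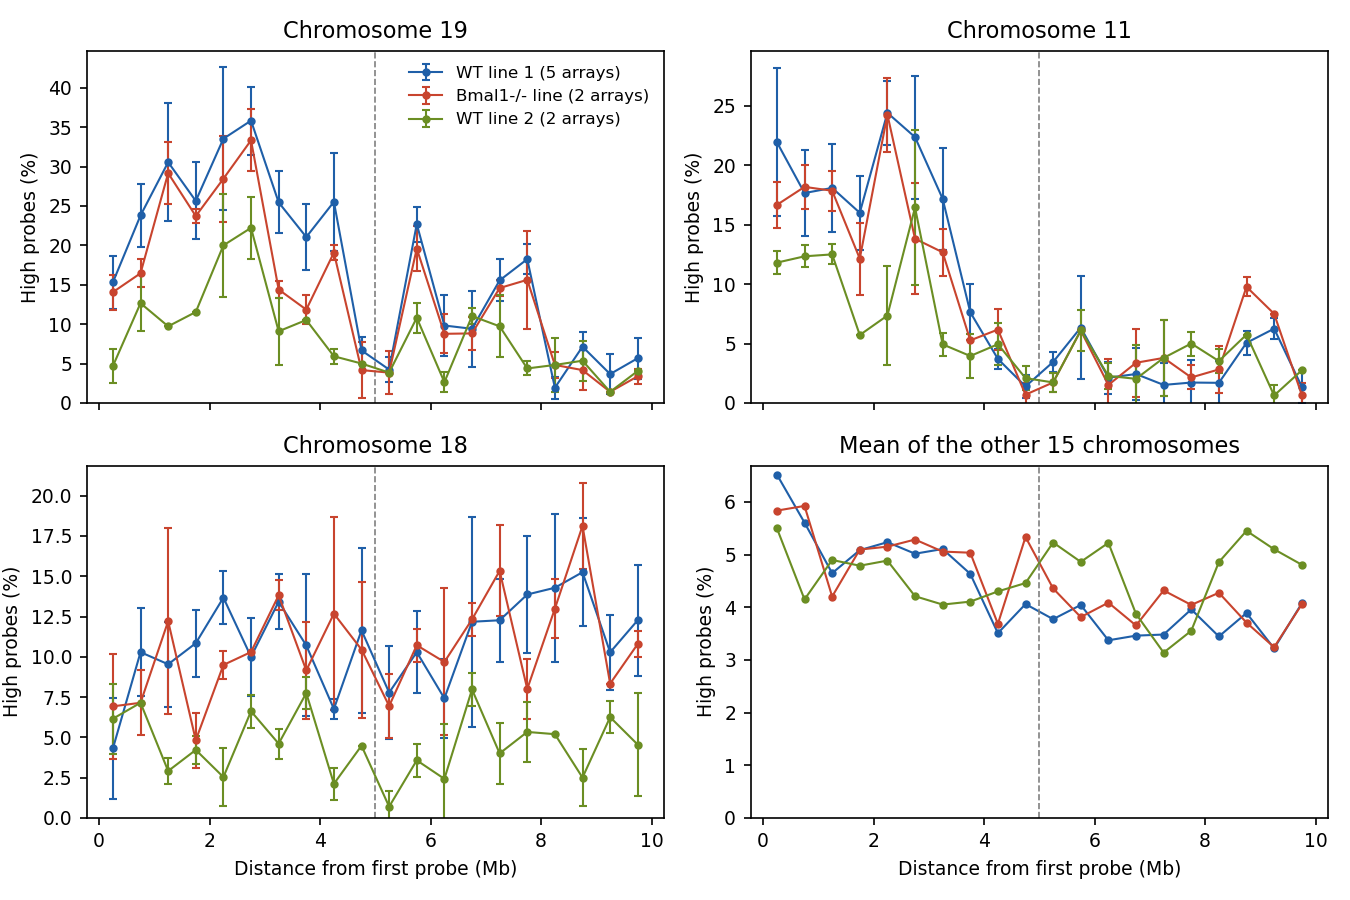
Share of high probes (percent) in 500 kb bins by distance from the first probe (Mb) for chromosomes 19, 11 and 18 and for the mean of the other 15 autosomes, by line, with a dashed line at 5 Mb and, for the 3 single chromosomes, bars for the SD over the arrays of a line. Chromosome 19 peaks at 35.8% in line 1 at 2.5 to 3 Mb, and chromosomes 19 and 11 fall to 6.67% and 1.39% in the bin before 5 Mb.

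Chromosome 15 divided the lines. Its excess was 0.987 to 2.82 points on the 5 line 1 arrays, 2.96 and 2.75 in Bmal1-/-, and -1.21 and -0.631 in line 2, with a fitted mean of 1.34 points (SE 0.246, limma adjusted p = 2.10e-04). Its highest bin, 3.5 to 4 Mb from the first probe, reached 15.3% ± 2.14 in line 1 (SD, n = 5), 20.0% in Bmal1-/- and 10.0% in line 2. In line 1 the first 2 Mb had 6.56% and the next 3 Mb 10.5%, though the bin from 0.5 to 1 Mb was also at 11.6%. In line 2 both stretches were near each other, at 4.38% and 4.53%. When the end was cut at 2 Mb, the excess turned to -0.428 points and was not called (limma adjusted p = 0.343).

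The lowest ends were those of chromosomes 9, 8, 1 and 10. Chromosome 9 had a fitted excess of -1.17 points (SE 0.237, limma adjusted p = 4.60e-04), and its arrays ran from -2.21 to -1.43 in line 1, with 0.222 and -1.42 in Bmal1-/- and -0.910 and -1.37 in line 2. Only the Bmal1-/- CT22 array was above 0 there. Chromosome 8 had -1.16 points (SE 0.296, limma adjusted p = 2.68e-03), with all 5 line 1 arrays (-2.86 to -0.386) and both Bmal1-/- arrays (-1.11 and -2.76) below 0 and both line 2 arrays (0.670 and 0.392) above. Its first 2 Mb had 6.48% ± 2.45 high probes in line 1 (SD, n = 5) and the next 3 Mb 2.38% ± 1.10, and cut at 2 Mb the excess turned to 0.303 points (limma adjusted p = 0.649). Chromosome 1 was at -0.98 points (limma adjusted p = 2.75e-03), with line 1 from -2.30 to -1.10, Bmal1-/- at -0.728 and -2.20, and line 2 at 0.542 and -0.284. It had 2.41% ± 0.744 high probes in the end in line 1 (SD, n = 5) against 4.02% in the rest. Chromosome 10 was at -0.94 points (limma adjusted p = 1.96e-03), with line 1 from -1.99 to -0.630, Bmal1-/- at -1.27 and -1.74 and line 2 at -0.362 and 0.478. With the 99th percentile the calls at chromosomes 9, 1 and 10 were lost (limma adjusted p = 0.115, 0.0971 and 0.118), and with 10 Mb ends that at chromosome 8 (0.0507).

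On several chromosomes the end held 2 stretches of different level, and the call changed with the length taken as the end. On chromosome 16 the share in the first 2 Mb was 10.6% ± 1.60 in line 1 (SD, n = 5), 7.87% in Bmal1-/- and 6.93% in line 2. From 2 to 5 Mb the shares were 1.47% ± 0.746, 1.65% and 2.62% in the same order, and all 9 arrays were higher in the first 2 Mb. Chromosome 12 had the same order on all 9 arrays, with 9.32% ± 0.948 in the first 2 Mb and 2.18% ± 1.28 from 2 to 5 Mb in line 1 (SD, n = 5). Its shares were 9.68% and 2.31% in Bmal1-/- and 5.73% and 3.46% in line 2. Chromosome 5 had 8.72% ± 1.86 and 3.52% ± 0.456 in line 1 (SD, n = 5) and 10.3% and 3.12% in Bmal1-/-, but 3.44% and 4.01% in line 2. Over the whole 5 Mb these 3 ends were not called, with fitted values of -0.530, -0.0145 and 0.221 points. Cut at 2 Mb they were called higher than the rest, by 3.89, 3.57 and 2.60 points (limma adjusted p = 7.59e-06, 1.51e-06 and 4.73e-04), where 27.9% of all 2 Mb segments were called higher. Chromosome 11 was also higher in its first 2 Mb than from 2 to 5 Mb on all 9 arrays, whereas chromosome 1 was lower there on all 9. In line 1 and Bmal1-/- chromosome 17 ran the other way from chromosome 16. It had 5.71% ± 0.782 in the first 2 Mb and 9.91% ± 1.21 from 2 to 5 Mb in line 1 (SD, n = 5). The same stretches gave 5.29% and 6.95% in Bmal1-/-, but 5.86% and 5.49% in line 2. These ends were singled out after their values were seen.

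The end of chromosome 14 was thinly covered. It had 374 probes, its largest gap between neighbouring probes was 555201 bp, and its first 5 bins of 500 kb held fewer than 20 probes each and were left out of the bin values. Its excess ran from -1.76 to 0.778 points over the 9 arrays and was not called.

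Across the other 15 autosomes there was a shallow decline with distance from the first probe in line 1 and Bmal1-/-. In line 1 the mean share of high probes was 5.35% ± 0.387 in the first 3 Mb, 4.32% ± 0.282 from 3 to 5 Mb and 3.68% ± 0.255 from 5 to 10 Mb (SD, n = 5). The first 3 Mb were above the stretch from 5 to 10 Mb on 10 to 12 of the 15 chromosomes, depending on the array. Bmal1-/- gave 5.38%, 4.79% and 3.99%, and 10 of 15 chromosomes on each array. Line 2 gave 5.00%, 4.23% and 4.59%, with 8 of 15. These shares include the thinly covered start of chromosome 14. As a mean of the 500 kb bins with at least 20 probes, the first 3 Mb were at 5.35% in line 1, 5.25% in Bmal1-/- and 4.73% in line 2. These distances were chosen after the values were seen, and no test was made of them. The stretches were not set against the rest of each chromosome. Over the whole 5 Mb these 15 ends had a mean excess of -0.169 points in line 1 and 0.0492 in Bmal1-/-. The decline therefore does not place these ends above the rest of their chromosomes. At the 5 Mb limit itself, the mean over the 18 ends in line 1 was 4.48% in the last bin inside and 4.00% in the first bin outside. The same bins gave 5.30% inside and 4.33% outside for Bmal1-/-, and 4.36% inside and 4.71% outside for line 2.

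The ranking of the ends was shared by line 1 and Bmal1-/-, and by line 2 only through its top. Over the 18 ends the mean excesses of line 1 and Bmal1-/- correlated with Pearson's r = 0.979 and Spearman's rho = 0.897. Line 1 and line 2 gave r = 0.846 and rho = 0.176. Without chromosomes 19, 11 and 18 the values over 15 ends were r = 0.834 and rho = 0.821 for line 1 with Bmal1-/-, and r = -0.345 and rho = -0.314 for line 1 with line 2. These correlations describe 18 regions read by the same probes on every array and carry no test. All 5 line 1 arrays were above 0 at 6 ends and below 0 at 5. At 4 of these (chromosomes 3, 6, 8 and 15) both line 2 arrays lay on the opposite side. No such count over all segments is given here, so whether it is particular to the ends is not known. On chromosome 3 the first 2 Mb held 7.75% high probes in line 2 but 1.31% ± 0.393 in line 1 (SD, n = 5).

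The ends were then set against the distal ends, the last 5 Mb of the same chromosomes, which held 13507 probes. On chromosomes 17, 18 and 19 the centromere-proximal end had more high probes than the distal end on all 9 arrays. On chromosomes 2, 8, 9, 10, 15 and 16 it had fewer on all 9, and on the other 9 chromosomes the arrays were mixed. On chromosome 19 the proximal end was above the distal one by 14.4 points in line 1, 10.0 in Bmal1-/- and 4.87 in line 2. On chromosome 17 the difference was 5.94, 3.57 and 2.93 points, with a distal end at 2.12% ± 0.530 in line 1 (SD, n = 5). On chromosome 15 it was -7.63, -4.12 and -5.17 points, the distal end being at 16.6% ± 2.08 in line 1 (SD, n = 5). Chromosome 11 was high at both ends, with 14.9% ± 0.524 and 15.01% ± 3.02 in line 1 (SD, n = 5), and its arrays were mixed. The mean difference over the 18 chromosomes was 0.0357 ± 0.407 points in line 1 (SD, n = 5), 0.245 ± 0.299 in Bmal1-/- (SD, n = 2) and -0.729 ± 0.00777 in line 2 (SD, n = 2), so over all chromosomes neither end was above the other by more than the spread in line 1 and Bmal1-/-.

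**Figure D4:**
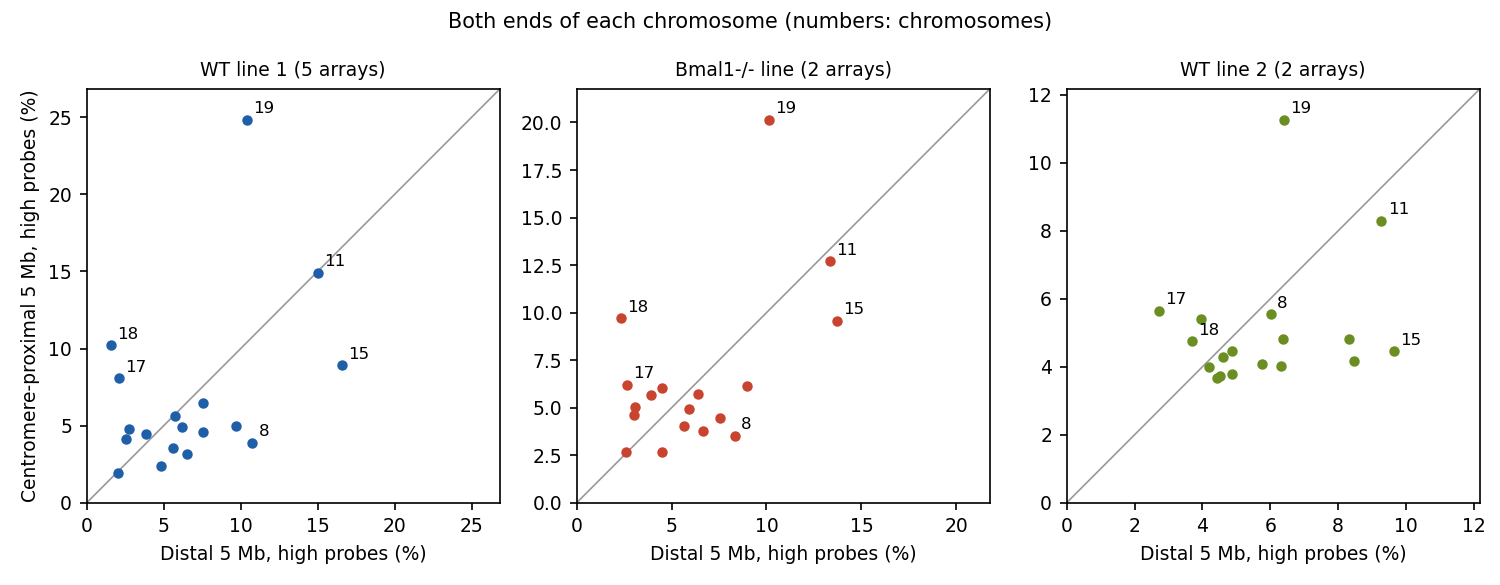
Share of high probes in the centromere-proximal end (percent, vertical axis) against the distal end of the same chromosome (percent, horizontal axis), in 1 panel per line, with 1 point per chromosome as the mean over the arrays of that line and a diagonal where both ends are equal. In line 1 chromosome 19 lies at 24.8% proximal and 10.4% distal, chromosome 11 is high at both ends, and chromosome 15 is higher at its distal end, at 16.6%.

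Chromosome 7, which carries Dbp, gives a measure of scale. Its own first 5 Mb, with 443 probes, reached a share of 42.3% ± 1.74 in line 1 (SD, n = 5), against 35.97% in the rest of that chromosome. The end of chromosome 19, on another chromosome, reached 24.8% ± 2.03 in line 1 (SD, n = 5).

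Single probes that were high on every line 1 array made up the largest shares in the ends of chromosomes 19, 11 and 18. These ends were named for their excess of the same high calls, so this order is not independent of that choice. In the 18 ends 65 of 12932 probes (0.503%) were high on all 5 line 1 arrays, against 809 of 332143 (0.244%) in the rest of these autosomes. Chromosome 19 held 20 of the 65, chromosome 11 held 12 and chromosome 18 held 6 (0.815% of its probes). Chromosome 15 was close to chromosome 18 with 5 (0.639%), and chromosomes 5 and 17 had 4 each (0.531% and 0.503%). Without chromosomes 19, 11 and 18 the other 15 ends held 27 among 10779 probes (0.250%), close to the rest of the autosomes. Those of chromosomes 1, 3 and 12 held none. Of the 65, 73.8% were also high on both Bmal1-/- arrays, and in the rest of the autosomes that share was 81.1%. Both Bmal1-/- arrays were high at 2.42% of end probes and 1.66% of the others, and both line 2 arrays at 2.27% of each. Probes that were high on no array made up 68.6% of the ends and 72.9% of the rest, with 33.9% on chromosome 19, 50.1% on chromosome 11 and 56.0% on chromosome 18. High on all 9 arrays were 6 end probes, 2 on chromosome 19, 2 on chromosome 11 and 1 each on chromosomes 5 and 15. Probes are not replicates, so these counts carry no test.

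No end passed the test for a difference between CT22 and CT34 in WT cells. The comparison used 4 arrays, 1 per time in each line, and called 0% of the 459 segments (limma, with 2 at an unadjusted p under 0.05, none of them an end). It had no term for the line, so the difference between the lines counts as error and the lack of calls says little about time. With such a term, 22 segments had an unadjusted limma p under 0.05, none of them an end. CT34 minus CT22 was positive at 10 of 18 ends and at 52.5% of all segments. Its median was 0.130 points over the ends and 0.0650 over all segments. The difference ran from -1.20 points on chromosome 13 to 1.502 on chromosome 14 (95% interval -0.72 to 3.72, limma adjusted p = 0.997). Both WT lines moved the same way at 9 of the 18 ends, a count not given here for all segments. On chromosome 19 the excess fell by 2.70 points in line 1 and rose by 2.28 points in line 2, single arrays each, and the fitted change was -0.210 points with a 95% interval of -13.0 to 12.6. The lines differed in level there, as given above. With the cell line as a replicate block the interval was -1.73 to 1.31 points. No end was called in that fit (limma adjusted p = 0.987), though 1 segment of chromosome 9 elsewhere was. The SE was 0.772 at all 18 ends, a value pooled over segments and not the precision of chromosome 19 itself. The interval holds neither the -2.70 points of line 1 nor the 2.28 points of line 2.

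The ends of chromosomes 19, 11 and 18 were high in Bmal1-/- cells too, and no end passed the test for a difference from WT. Against WT at CT22 and CT34 (6 arrays, with time as a term) 0% of segments were called (limma, with 11 at an unadjusted p under 0.05, none of them an end). Bmal1-/- minus WT was positive at 12 of 18 ends and at 45.5% of all segments. Its median was 0.630 points over the ends and -0.0887 over all segments. The smallest p-values among the ends were at chromosome 2 (1.60 points, 95% interval -0.0911 to 3.28) and chromosome 14 (1.54 points, -0.0909 to 3.16), each with a limma adjusted p of 0.863. Chromosome 19 was at 1.76 points (-7.57 to 11.1, limma adjusted p = 0.930), where the WT mean combines a high and a low line. Against the sibling line 1 alone the direction turned, to -3.53 points (SE 0.971, 95% interval -5.59 to -1.47, limma adjusted p = 0.128), and on chromosome 11 it was -1.24 points (-2.87 to 0.395). Other ends went the other way in that fit: chromosome 14 by 1.77 points (0.129 to 3.42, limma adjusted p = 0.555), chromosome 2 by 1.10 and chromosome 18 by 0.872. At matched times Bmal1-/- was above line 1 at 11 of 18 ends, a count not given here for all segments. That fit had 1 array per line and time, so its SE leans on the variance of all segments. On the mean log2 ratio, over both WT lines, chromosome 19 stood at 0.33 (-0.25 to 0.90).

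Set against all 5 line 1 arrays, whatever their time, both Bmal1-/- arrays lay below every one at the ends of chromosomes 11 and 19 and above every one at chromosomes 4, 9 and 14. Such separation held at 5 of 18 ends and at 17.2% of all segments. At chromosomes 4, 9 and 14 it was narrow. The lower Bmal1-/- array stood there at 1.36, -1.420 and 0.46 points, and the highest line 1 array at 1.29, -1.428 and 0.27. By the array names in the file headers, the line 1 CT26 array was named in the same style as both Bmal1-/- arrays, and the other line 1 arrays in another. Among the arrays of that style the chromosome 19 excess was 19.6 points in line 1 and 12.0 and 14 in Bmal1-/-. That line 1 array was the highest of the 5 at this end, and no Bmal1-/- array shared its time. With 1 line 1 array of that style, line and time cannot be told apart there. Both line 2 arrays lay above all 5 line 1 arrays at 5 ends (1, 3, 8, 9 and 10) and below at 8 (2, 4, 5, 6, 11, 15, 18 and 19). These 13 ends (72.2%) compare with 55.3% of all segments.

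**Figure D5:**
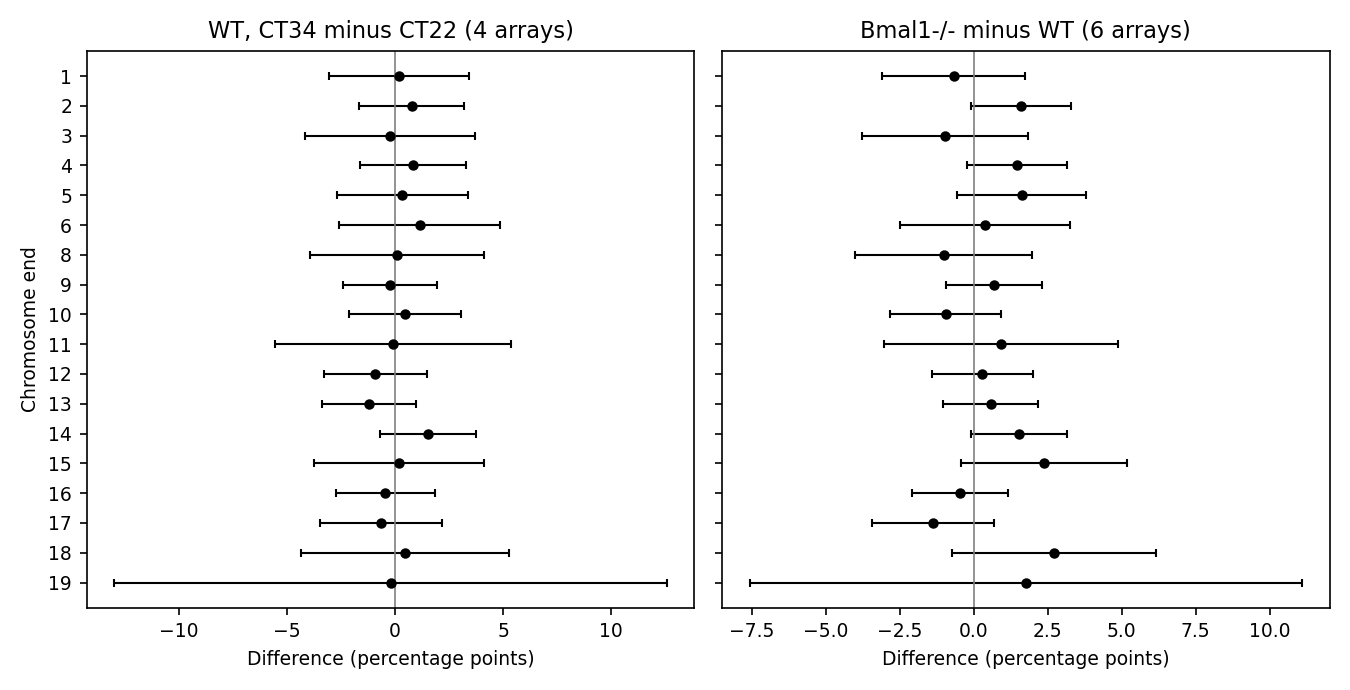
Fitted differences in excess (percentage points, limma estimate with 95% interval) at each of the 18 ends for CT34 minus CT22 in WT and for Bmal1-/- minus WT. Neither fit had a term for the WT line, so the difference between the WT lines widens the intervals. All intervals include 0, and the widest is that of chromosome 19, whose time interval is -13.0 to 12.6 points.

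The interaction of genotype and time and the rhythm over the 7 WT arrays also called 0% of the 459 segments each. At an unadjusted p under 0.05 limma gave 1 segment for the interaction and 19 for the rhythm, with no end among them. The smallest interaction p-values among the ends were at chromosome 9 (-1.42 points) and chromosome 6 (-2.24 points), each with a limma adjusted p of 0.995. The fitted rhythm of 24 h had an amplitude of 2.66 points at chromosome 19 and 0.769 points at chromosome 13, each with a limma adjusted p of 0.837. The number of arrays limits these comparisons: the median 95% interval of an end reached 2.94 points to either side for time and 2.11 points for genotype. With the cell line as a replicate block it was 1.52 points for time, from an SE that all ends shared.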

How the data were processed

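Each deposited log2 value is the Cy5 to Cy3 ratio of 1 probe of 59 nt, which the authors' NimbleScan software shifted by each array's Tukey biweight mean, per the file headers. The log base is that software's convention and is not written in the files. For background correction, filters and genome build, the sources used here give nothing. HindIII sites in RefSeq GRCm38.p6 promoters fell within 80 bp of a probe no more often (2.55% of 2273) than after a shift of 20 kb (2.82%), so no gene or sequence was assigned.

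Shares of probes above the array's 95th percentile were taken per 5 Mb segment (at least 100 probes), minus the share in the rest of its chromosome. Segments were fitted with limma 3.58.1 in R 4.3.3 (lmFit, eBayes, two-sided, Benjamini-Hochberg over 459 segments). The fits were also run on simulated data that held no difference between the WT lines, so that run does not speak for their power here. Python 3.11.15 with pandas 2.3.3 and scipy 1.17.1 did the rest. Array depth has no count, so the number of arrays sets the precision. The replicate number stands for the WT line and pairs samples: the line 1 minus line 2 differences at CT22 and CT34 correlated with r = 0.782 over segments. Chromosomes 19, 11, 18 and 15 and 9, 8, 1 and 10 were named as the 4 highest and 4 lowest fitted ends. The ends and the tests were chosen with earlier results of these data known. Alternatives included the 90th and 99th percentiles, segments of 2 and 10 Mb, mean log2 ratios and leaving out arrays.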

Additional observations from a re-analysis of the deposited data

How the results depend on the processing

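The excesses of chromosomes 19, 11 and 18 kept their direction and their call under every alternative run. Their ranges on the share scale were 3.86 to 17.9, 0.665 to 8.14 and 0.729 to 6.13 points. The largest limma adjusted p were 8.17e-07, 1.68e-03 and 5.78e-04. No alternative took line 2 or the Bmal1-/- line alone. In line 2 the excess of chromosome 18 was 0.155 points, and -0.01 on the log2 scale. Of 342 values (18 ends under 19 alternatives), 269 kept their sign and their side of the threshold, 36 kept the sign and lost the call, 6 kept the sign and gained it, and 31 changed sign. Of these 31, 21 were called neither before nor after. The other 10 were chromosome 13 with the 99th percentile (0.0214 points) and with mean log2 ratios (0.00296 on the log2 scale), chromosomes 8, 15 and 17 with 2 Mb ends (0.303, -0.428 and -0.385 points), chromosomes 6 and 17 with 10 Mb ends (-0.243 and -0.603 points) and 3 ends called only under the alternative. These 3 were chromosomes 12 and 16 with 2 Mb ends (3.57 and 3.89 points) and chromosome 5 with 10 Mb ends (-0.679 points).

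With the 99th percentile 1 end was called lower, and with 2 Mb ends 3 were. With 10 Mb ends 4 were called higher. Called segments numbered 811 of 1126 with 2 Mb and 183 of 232 with 10 Mb segments. The mean excess over the 18 ends went from 1.01 points to 0.345 with the 99th percentile and 0.209 with 10 Mb ends. The mean proximal minus distal difference went from -0.149 points to 0.0728 with the 99th percentile, 0.311 with 2 Mb, -0.784 with 10 Mb and 0.141 without both line 2 arrays, a setting added after the data were seen. The cause of these shifts was not tested. Leaving out 1 array gave 331 to 363 called segments, 5 to 7 higher and 4 to 6 lower ends, a mean excess of 0.991 to 1.03 points and a proximal minus distal difference of -0.2197 to -0.0790.

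With the cell line as a replicate block 1 segment was called for time and 3 for the interaction (with a term for line 2), none of them an end. The genotype fit with the block, against line 1 alone, called 0. The rhythm fit had the cell line as a term throughout, and genotype against both WT lines was not run with a block. The rhythm called 1 segment each with 10 Mb segments, with the trend and robust options and with the times in the array names. Leaving out 1 array it called 0 to 8, with 8 without line 1 CT22, none an end, and the time, genotype and interaction fits called 0 to 0. The interaction could not be fitted without a Bmal1-/- array. The number of arrays and the narrow log2 range of line 2 limit all of these.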
